A study of Homo sapiens with 6 samples.

Results

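The 52 genes described here drive the cell division cycle: cyclins, cyclin-dependent kinases (CDKs), CDK inhibitors, the RB and E2F families, replication licensing factors and mitotic regulators. They were chosen by name, with no cut on a measured value but with earlier results of these data known. All 52 were found among the 58870 genes of the count table, of which 32338 had a count in at least 1 library. RNA sequencing was performed on WM164, an established human melanoma cell line. Of the 6 libraries, 3 were labelled GFP, from cells overexpressing green fluorescent protein as the control, and 3 were labelled T-MGM, from cells overexpressing a tethered dimer in which the transcription factor MAFG is joined to MITF through a flexible linker. Per the study's methods the dimer carries the melanocyte isoform of MITF with MAFG behind it, both constructs were delivered by lentivirus under the EF1α promoter, and both cell populations therefore share viral transduction and blasticidin selection. The comparison asks which transcripts change when the dimer is forced on these cells. The labels do not say that the 3 libraries of a group came from separate cultures, so the p-values measure the spread between these libraries, which may be technical.

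Cells leave G1 when D-type cyclins with CDK4 or CDK6, and then E-type cyclins with CDK2, phosphorylate the RB proteins and so release the E2F factors, which transcribe genes for DNA replication. The INK4 inhibitors block CDK4 and CDK6, whereas the CIP/KIP inhibitors bind cyclin-CDK complexes more widely. Replication origins are licensed in G1 by loading of the MCM helicase, and many mitotic genes are transcribed only in G2 and M. In melanoma the INK4 locus and cyclin D1 are recurrent sites of genetic change, and MITF, the lineage factor of melanocytes, is known to act on several genes of this pathway.

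Depth was 35057239 to 38738065 counts per GFP control and 44577774 to 59250663 counts per library labelled T-MGM. Libraries of the same group correlated with r of 0.991 to 0.994 and libraries of different groups with r of 0.971 to 0.974 (log scale, across genes). Neither gene of the construct checked the labels: MAFG differed by -0.06 on the log2 scale (SE 0.04, adjusted p = 0.236), and MITF by 0.08 (SE 0.02, adjusted p = 4.8e-07), which became -0.06 on the TPM scale. Of these 2 genes, 1 had groups without overlap in the higher direction and 1 in the lower. After correction for GC content and length, 1 passed as higher and 1 as lower. Every direction below is therefore that of the libraries labelled T-MGM against those labelled GFP. Of 8 melanocyte markers, SOX10, PMEL and MITF averaged 133 to 416 TPM in both groups, TYRP1 had at most 6 counts in a library, and DCT was lower by -2.49 on the log2 scale. In all, 7 of the 8 were tested, of which 3 were higher and 3 lower on counts. The summed level of the 8 was 982 to 995 TPM among the GFP controls and 848 to 882 TPM in the others. Among markers of other cell types, PTPRC, CD3E, CDH5, COL3A1, KRT5 and KRT14 were at or near 0. The summed level of 6 fibroblast markers was 3.84 to 4.83 TPM among the GFP controls and 5.34 to 6.69 TPM in the others. Of these 6, 4 were tested and 3 passed as higher, 2 of them over 2-fold. Their summed normalized counts averaged 393 among the GFP controls and 738 in the others. The sum of 6 haematopoietic markers, mostly CD68 (log2 fold change 0.45) with LYZ lower (-1.32), was 11.1 to 12.8 and 11.8 to 15.6 TPM. The sum of 5 keratinocyte markers, nearly all KRT10, was 19.6 to 21.9 TPM and that of 4 endothelial markers 0.18 to 0.36 TPM over all libraries. The part of these differences in the results below was not tested.

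Of the 52 genes, 51 could be tested and 36 passed an adjusted p of 0.05: 24 had more and 12 had less RNA in the libraries labelled T-MGM. Among all 19135 genes tested, 19.2% were higher, 19.2% lower and 38.4% passed in either direction. Adjusted p-values here and below are Benjamini-Hochberg values over all genes from the Wald test of DESeq2, and a positive log2 fold change means more in T-MGM, on counts scaled by size factors. The cell cycle genes are abundant, and abundance makes small differences detectable: 46 of them averaged at least 1000 normalized counts, of which 22 were higher and 11 lower. At that level 29.7% of all genes were higher, 38.3% lower and 68% passed in either direction, so the share of cell cycle genes that passed in either direction was near that of abundant genes as a whole. Their calls leaned to higher where those of abundant genes leaned to lower, a contrast that was not tested.

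The changes were small. Only CDKN1C exceeded 2-fold, against 4.63% of all genes tested and 0.684% of the abundant ones. Of the 36 that passed, 19 differed by at most 0.2 on the log2 scale, 15 by more than 0.2 and up to 0.5, and CDKN2A by 0.64. The median log2 fold change of the 51 genes was 0.05 (SD between replicates 0.01, range -0.31 to 1.56), compared with 0.00 over all genes with a mean of at least 10 normalized counts. The 3 libraries of one group lay entirely above the 3 of the other for 24 genes in the higher direction and 13 in the lower, where 23.4% and 23.4% of all genes did so.

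The split between higher and lower depended on the scale. With total counts in place of size factors it was 19 higher and 17 lower, and on TPM, a level per transcript length and depth that the authors computed separately, it was 8 higher and 22 lower. On TPM the median over genes with a mean of at least 50 normalized counts itself shifted to -0.13, from -0.01 on counts. Relative to that shift, 23 of the 24 higher genes kept their direction, all but MKI67, as did all 12 lower genes. Without that allowance 15 of the 24 higher genes were still above 0 on TPM, and 8 of them passed there as higher: CCND1, CDKN1A, CDKN1C, CDKN2A, CDKN2C, E2F2, MCM5 and RRM2. All 12 lower genes passed there as lower, as did MYBL2 and MKI67.

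**Figure D1:**
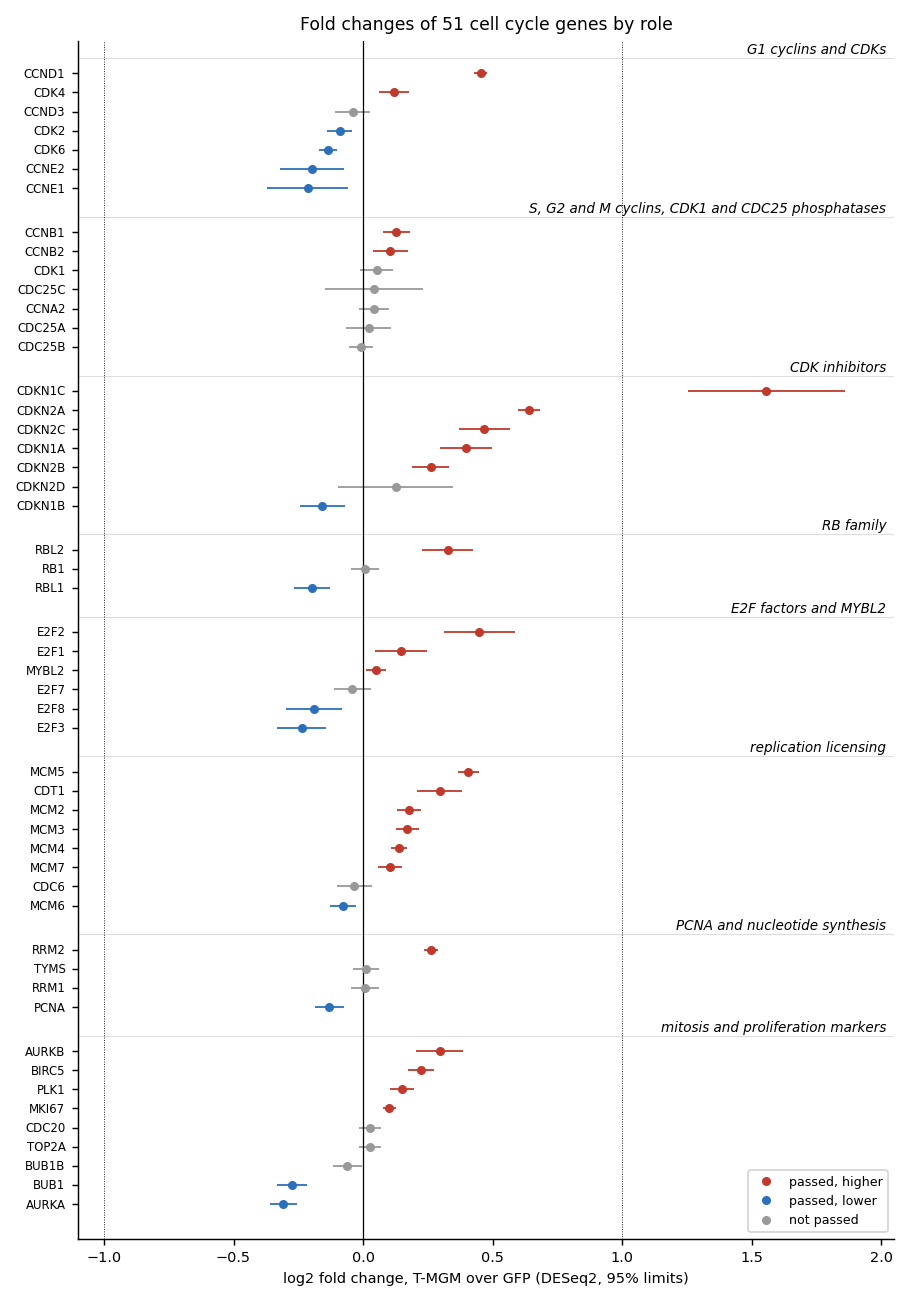
Log2 fold change of 51 cell cycle genes (x axis, T-MGM over GFP, with 95% limits) in 8 role groups (y axis, genes in order of fold change within each group), red for higher, blue for lower and grey for not passed, with dotted lines at 2-fold. CDKN1C alone lies beyond a dotted line and most genes lie within 0.5 of 0.

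Levels per length spanned from 1.69 TPM (CDKN1C, GFP) to 398 TPM (CDKN2A, T-MGM), leaving aside CCND2. The order was led by CDKN2A, RRM2, CCND1 and MCM4, followed by MKI67 at 119 ± 3.0 TPM (SD, n = 3) among the GFP controls and 106 ± 1.13 TPM in those labelled T-MGM. Among the GFP controls RRM2 stood first and CDKN2A and CCND1 overlapped, whereas in the libraries labelled T-MGM CDKN2A stood first and RRM2 and CCND1 overlapped. By mean over the 6 libraries the foot of the order, above CDKN1C, was E2F2 (3.08 TPM, then 4.14), CDC25C (5.75, then 5.29), RBL2 (6.21, then 6.94), E2F3 (7.75, then 5.92) and CDKN2D (7.39, then 7.07), and CDC25C and CDKN2D overlapped between groups. CCND2, the D-type cyclin of many lymphoid cells, was barely detected: its raw counts were 5, 0 and 0 among the GFP controls and 1, 2 and 4 in those labelled T-MGM, so it got no adjusted p and its fold change is not interpreted.

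**Figure D2:**
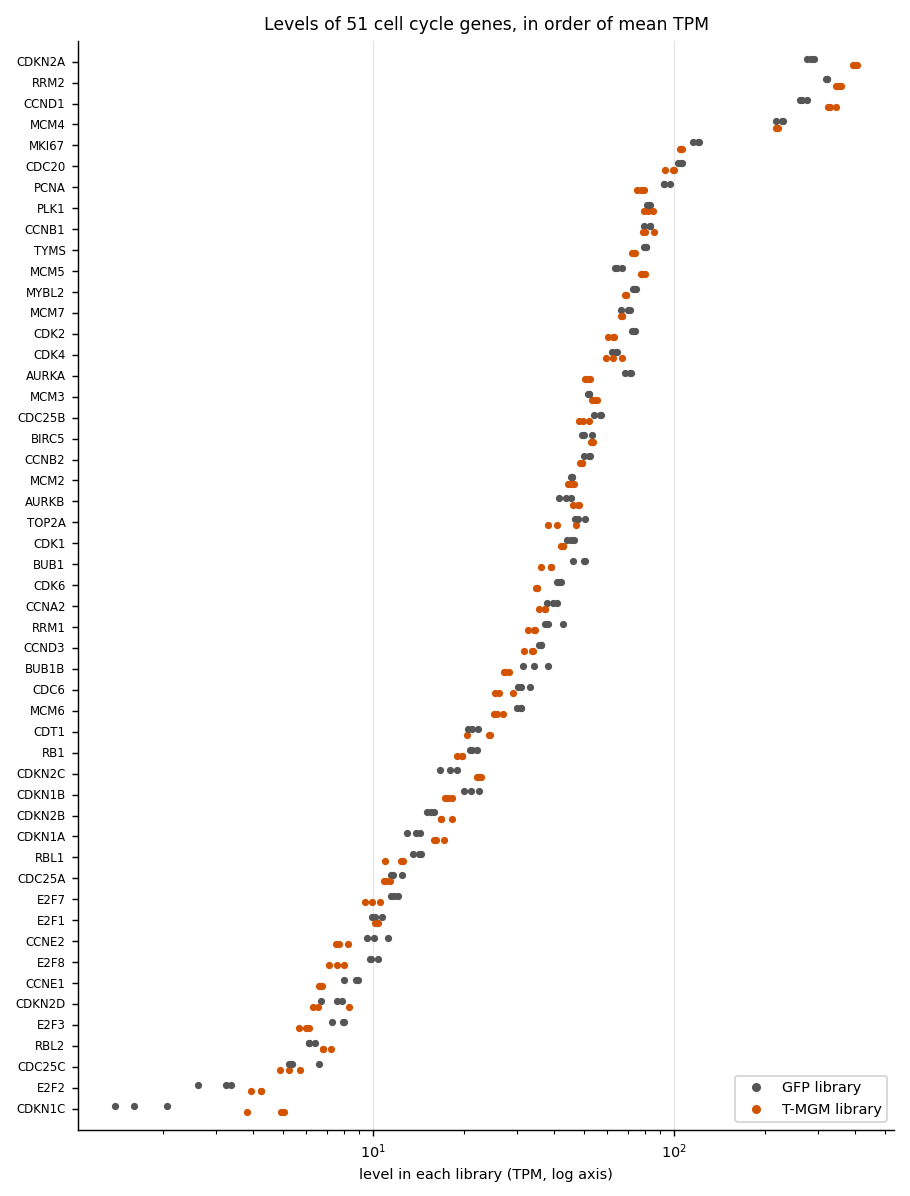
Level in each library (x axis, TPM on a log axis) of 51 cell cycle genes in order of mean TPM (y axis), grey points for GFP and orange for T-MGM libraries. CDKN2A, RRM2 and CCND1 lead at more than 260 TPM in every library, and CDKN1C moves furthest along the axis.

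The 15 genes that were tested and did not pass had log2 fold changes between -0.06 and 0.13, and their 95% limits together spanned 0.902-fold to 1.27-fold, a range that holds for counts scaled by size factors. They were CCND3, CCNA2, CDK1, CDC25A, CDC25B, CDC25C, CDKN2D, RB1, E2F7, CDC6, TYMS, RRM1, TOP2A, BUB1B and CDC20. On TPM all 15 were below 0 (-0.31 to -0.06), and CDC25B, RB1, E2F7, CDC6, TYMS, RRM1, BUB1B and CDC20 passed as lower. On that scale the median over genes with a mean of at least 50 normalized counts was itself -0.13. RB1 and TYMS (-0.13 each) lay at that median, CDC20 (-0.11) lay above it, and CDC25B, E2F7, CDC6, RRM1 and BUB1B lay below it. BUB1B, a kinase of the spindle checkpoint, came nearest (adjusted p = 0.0932), with 4611, 4596 and 4858 normalized counts among the GFP controls and 4503, 4451 and 4533 in the others, which did not overlap. These are bulk libraries, in which a different share of cells in a given phase and a different amount of a transcript per cell cannot be told apart.

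CDK inhibitors moved most. Of 7 inhibitors, 5 were higher, CDKN1B was lower and CDKN2D did not pass, and the 6 that passed kept their directions on total counts and on TPM. CDKN1C encodes p57, a CIP/KIP inhibitor that is imprinted and best known from differentiating and quiescent cells (chr11:2883213-2885775, minus strand). Its normalized counts were 157, 101 and 126 among the GFP controls and 394, 315 and 413 in those labelled T-MGM. The groups were far apart, at 2.94-fold (95% limits 2.38 to 3.63, adjusted p = 1.36e-22), although the level remained low at 4.59 ± 0.689 TPM (SD, n = 3). CDKN1C accordingly grew from 4.6% to 11.8% of the summed CIP/KIP level, which itself went from 36.6 ± 0.848 to 38.9 ± 0.558 TPM.

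CDKN2A (chr9:21967752-21995301, minus strand) yields both p16INK4a, an inhibitor of CDK4 and CDK6, and p14ARF, which stabilizes p53, from separate first exons that share a second. Counts per gene do not separate these products. The GFP libraries held 8167, 7830 and 7776 normalized counts and the libraries labelled T-MGM 12230, 12331 and 12475. All 3 of the latter were above all GFP libraries, by 0.64 on the log2 scale (SE 0.02, adjusted p = 1.24e-193), or 1.56-fold. The neighbouring gene CDKN2B, which encodes p15INK4b, was also higher (log2 fold change 0.26, SE 0.04, adjusted p = 6.46e-12), a call lost on TPM (0.14, adjusted p = 0.0579), whereas MTAP on its other side was lower (-0.19, SE 0.03, adjusted p = 4.2e-09, and -0.06 with adjusted p = 0.158 after GC correction). The median over 33 expressed genes within 10 Mb was -0.05. CDKN2B-AS1 overlaps both CDKN2A and CDKN2B on the opposite strand, and because the labels and the methods name kits without and with strand information, reads of antisense partners may not have been separated.

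Among the other inhibitors, CDKN2C, which encodes p18INK4c, had 1572, 1423 and 1568 normalized counts among the GFP controls and 1991, 2136 and 2177 in those labelled T-MGM. The groups did not overlap (log2 fold change 0.47, SE 0.05, adjusted p = 1.47e-19). CDKN1A, the p21 inhibitor that p53 induces, was higher by 0.40 (SE 0.05, adjusted p = 7.55e-14), and by 0.25 on TPM (adjusted p = 0.0108). CDKN1B, the p27 inhibitor, was lower by -0.16 (SE 0.04, adjusted p = 0.00133), a call that was lost without GFP replicate 1 (adjusted p = 0.0573) and after correction for GC content and length (-0.08, adjusted p = 0.166). Summed over the 4 INK4 genes, the level went from 325 ± 8.48 to 445 ± 8.76 TPM, and CDKN2A made up 87.5% and 89.5% of it.

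The 250 bases upstream of the RefSeq starts (GRCh38.p14) are shown for the INK4 genes that moved most, CDKN2A at its p14ARF start (chr9:21995325-21995574, minus strand) and its p16INK4a start (chr9:21974858-21975107, minus strand), and CDKN2C (chr1:50969995-50970244, plus strand). RefSeq gives CDKN2C further starts, and the window shown is the one of its 3 with the most matches. Capitals mark matches, on either strand, to the motif letters listed with the promoter counts further on.
CDKN2A, p14ARF start: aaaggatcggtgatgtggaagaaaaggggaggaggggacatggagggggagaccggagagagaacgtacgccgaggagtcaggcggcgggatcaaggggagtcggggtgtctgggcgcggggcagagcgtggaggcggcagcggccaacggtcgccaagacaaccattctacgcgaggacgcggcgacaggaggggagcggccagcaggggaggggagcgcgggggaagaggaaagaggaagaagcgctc
CDKN2A, p16INK4a start: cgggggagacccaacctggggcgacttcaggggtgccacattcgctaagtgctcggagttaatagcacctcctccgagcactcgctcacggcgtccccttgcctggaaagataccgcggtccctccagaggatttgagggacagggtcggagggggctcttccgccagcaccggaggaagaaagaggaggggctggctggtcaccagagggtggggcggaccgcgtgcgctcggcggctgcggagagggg
CDKN2C: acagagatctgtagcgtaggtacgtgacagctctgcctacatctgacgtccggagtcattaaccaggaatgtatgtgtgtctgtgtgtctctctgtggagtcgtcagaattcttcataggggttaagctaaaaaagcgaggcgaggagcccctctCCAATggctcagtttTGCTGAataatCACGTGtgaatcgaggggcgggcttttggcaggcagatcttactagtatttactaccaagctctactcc
Neither CDKN2A window held any of the letters searched, while the CDKN2C window shown held a CCAAT box, the MAF half-site letters TGCTGA and the E-box CACGTG. Of the other CDKN2C windows, one held an E-box and the MAF half-site letters and one held no match.

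**Figure D3:**
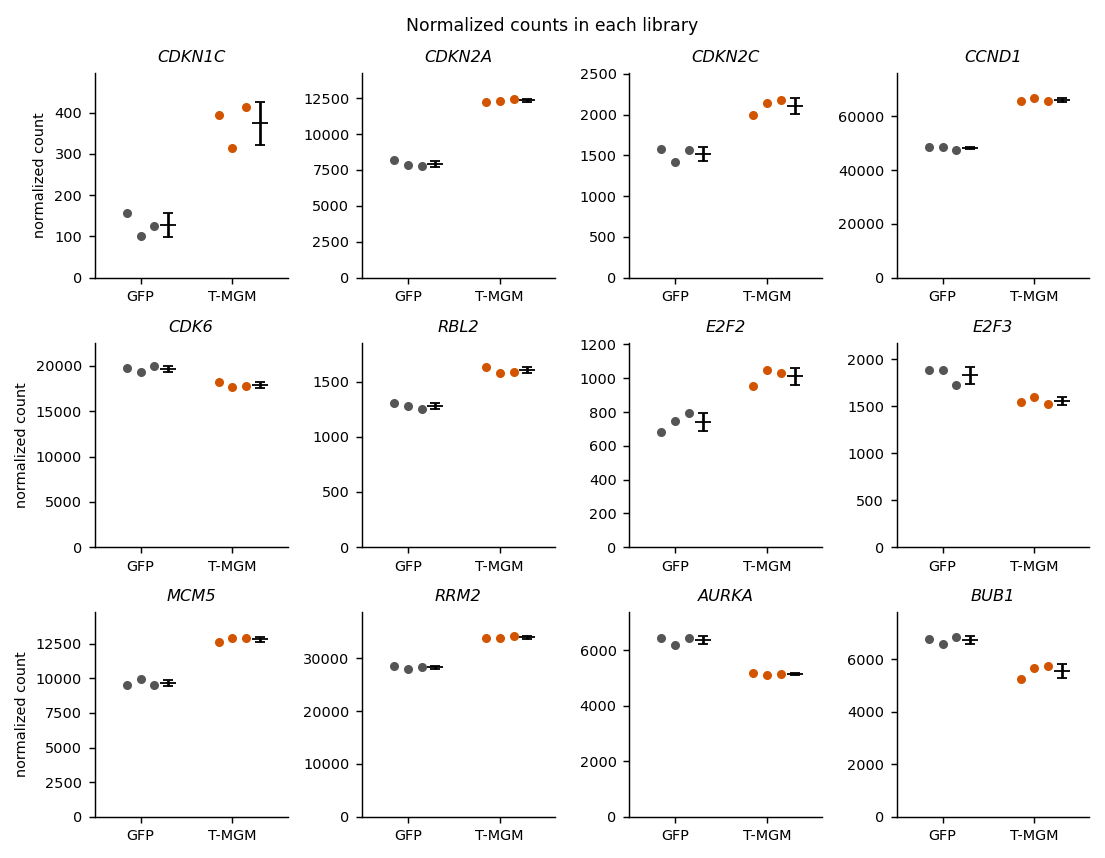
Normalized counts (y axis, from 0) of 12 genes in the 3 GFP and 3 T-MGM libraries (x axis), 1 point per library, with the mean and SD beside each group. The groups do not overlap in any panel, and CDKN1C shows the widest step, from at most 157 to at least 315 counts.

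Among the G1 cyclins and CDKs, CCND1 and CDK4 were higher, CDK6, CDK2, CCNE1 and CCNE2 were lower, and CCND3 did not pass, with CDK4 alone changing sign on TPM (-0.01). CCND1 encodes cyclin D1, which links growth signals to CDK4 and CDK6 (chr11:69641156-69654474, plus strand). It had 48541, 48491 and 47631 normalized counts among the GFP controls and 65596, 66877 and 65768 in those labelled T-MGM. The groups were separated by 0.45 on the log2 scale (SE 0.01, adjusted p = 6.42e-268). In level, CCND1 went from 269 ± 7.71 to 333 ± 11.0 TPM (SD, n = 3) and accounted for 88.2% and 90.9% of the D-type cyclin total. The median over 261 expressed genes within 10 Mb of CCND1 was also positive, at 0.22, and its part in the result was not tested.

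CDK6 had 19786, 19294 and 19949 normalized counts among the GFP controls and 18235, 17677 and 17815 in those labelled T-MGM. All of the latter were lower (log2 fold change -0.14, SE 0.02, adjusted p = 1.04e-13), yet after GC correction the difference was -0.01 (adjusted p = 0.616). CDK4, the partner kinase, was higher by 0.12 (SE 0.03, adjusted p = 0.000194), with adjusted p = 0.0508 after GC correction, and the level of both kinases summed went from 105 ± 1.83 to 98.0 ± 3.76 TPM. CDK2, which overlaps PMEL on the opposite strand, was lower by -0.09 (SE 0.02, adjusted p = 0.00106).

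The E-type cyclins that activate CDK2 were both lower and both low in level, CCNE1 at 8.56 ± 0.504 and 6.69 ± 0.085 TPM and CCNE2 at 10.3 ± 0.882 and 7.82 ± 0.353 TPM. CCNE1 differed by -0.21 (SE 0.08, adjusted p = 0.0219) and did not pass in 5 of the 6 fits that left out a library, all but that without GFP replicate 2 (adjusted p of 0.0607 to 0.0892). CCNE2 differed by -0.20 (SE 0.06, adjusted p = 0.00602) and did not pass without GFP replicate 3 (0.0651), without T-MGM replicate 2 (0.0803) or after GC correction (-0.03, adjusted p = 0.748).

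The RB family diverged, with RBL2 higher, RBL1 lower and RB1 not passed. RBL2 encodes p130, the family member of quiescent cells, and had 1308, 1274 and 1248 normalized counts among the GFP controls against 1633, 1581 and 1590. RBL1 encodes p107, which is abundant in cycling cells, and had 3124, 2989 and 3180 against 2689, 2733 and 2679. For each gene the groups were fully apart, in opposite directions (RBL2 0.33, SE 0.05, adjusted p = 3.68e-10, and RBL1 -0.20, SE 0.04, adjusted p = 1.68e-07). After GC correction RBL1 no longer passed (-0.08, adjusted p = 0.076), and on TPM the RBL2 difference was 0.14 (adjusted p = 0.1).

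The E2F factors were split as well. E2F2, E2F1 and MYBL2 were higher, E2F3 and E2F8 lower and E2F7 not passed, with E2F1 (-0.00) and MYBL2 (-0.10) changing sign on TPM. The activator E2F2 had 685, 747 and 792 normalized counts among the GFP controls and 956, 1050 and 1030 in those labelled T-MGM, and was higher by 0.45 (SE 0.07, adjusted p = 8.6e-10). E2F3, another activator, had 1885, 1879 and 1725 against 1545, 1595 and 1522, and was lower by -0.24 (SE 0.05, adjusted p = 4.97e-06). E2F2 and E2F3 thus moved in opposite directions, and both kept their calls after GC correction. RefSeq gives E2F3 a further start, and counts per gene do not separate the transcripts of each.

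The remaining E2F changes were less firm. E2F1 differed by 0.15 (SE 0.05, adjusted p = 0.0115) but not past the threshold without GFP replicate 1 (0.0754), without GFP replicate 3 (0.0548) or after GC correction (0.01, adjusted p = 0.916). The repressor E2F8 differed by -0.19 (SE 0.06, adjusted p = 0.00201) and did not pass without GFP replicate 3 (0.0566). MYBL2, which activates mitotic genes with the MuvB complex, differed by 0.05 (SE 0.02, adjusted p = 0.0321), lost its call without GFP replicate 1 (0.0784), GFP replicate 3 (0.147), T-MGM replicate 1 (0.0592) or T-MGM replicate 3 (0.135), also lost it when independent filtering was left out (0.0541), and was lower after GC correction (-0.08, adjusted p = 0.000316).

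The upstream windows of the E2F activators that moved in opposite directions are E2F2 (chr1:23531234-23531483, minus strand) and E2F3 (chr6:20401629-20401878, plus strand), with the same use of capitals.
E2F2: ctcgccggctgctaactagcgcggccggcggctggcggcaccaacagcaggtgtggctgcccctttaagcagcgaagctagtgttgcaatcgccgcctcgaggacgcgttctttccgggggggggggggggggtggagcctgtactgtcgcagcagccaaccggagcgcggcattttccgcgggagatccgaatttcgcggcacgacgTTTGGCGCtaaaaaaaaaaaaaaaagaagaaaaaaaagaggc
E2F3: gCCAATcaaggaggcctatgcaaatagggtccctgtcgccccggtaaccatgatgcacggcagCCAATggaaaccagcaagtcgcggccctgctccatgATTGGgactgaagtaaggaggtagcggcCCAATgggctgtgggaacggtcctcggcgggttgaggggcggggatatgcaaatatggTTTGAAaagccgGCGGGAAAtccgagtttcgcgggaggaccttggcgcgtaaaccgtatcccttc
Each held 1 match to the E2F letters, and the E2F3 window also held CCAAT boxes and the CHR letters TTTGAA. A second E2F3 window, not printed, held 1 match, an E-box.

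Replication licensing genes were mostly higher: 6 of 8 rose, MCM6 fell and CDC6 did not pass. On TPM, MCM2, MCM4 and MCM7 were below 0 (-0.01, -0.04 and -0.05), MCM3 did not pass (0.07, adjusted p = 0.113) and CDC6 passed as lower (-0.22, adjusted p = 0.027). MCM5, a subunit of the replicative helicase (chr22:35400134-35425431, plus strand), had 9519, 9943 and 9544 normalized counts among the GFP controls and 12605, 12923 and 12924 in those labelled T-MGM. It stood well apart from the other subunits at 0.41 (SE 0.02, adjusted p = 2.04e-82), compared with 0.11 to 0.18 for MCM2, MCM3, MCM4 and MCM7, and was at 0.27 on TPM (adjusted p = 0.000754). MCM4, the most abundant subunit, had 17411, 16968 and 17133 against 19032, 18910 and 18773, without overlap (0.14, SE 0.02, adjusted p = 1.13e-16).

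MCM6 was lower by -0.08 (SE 0.03, adjusted p = 0.00806), but did not pass without GFP replicate 2 (0.0703), without T-MGM replicate 3 (0.0518) or after GC correction (-0.01, adjusted p = 0.877). MCM7, which hosts microRNA genes of the miR-106b cluster, also did not pass after GC correction (0.00, adjusted p = 0.976). The median over expressed genes within 10 Mb was -0.17 for MCM6 (39 genes) and 0.11 for MCM5 (191 genes). The part of these in the results was not tested. The helicase is a ring of 1 copy of each subunit, and their summed level was 488 ± 8.13 TPM among the GFP controls and 491 ± 3.13 TPM in the others. The loading factor CDT1 was higher by 0.30 (SE 0.04, adjusted p = 2.37e-10), with 0.10 on TPM (adjusted p = 0.312).

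Of the PCNA and nucleotide synthesis genes, RRM2 was higher, PCNA lower, and TYMS and RRM1 did not pass. On TPM, RRM2 was higher by 0.13 (adjusted p = 0.00466) and PCNA lower, and TYMS (-0.13, adjusted p = 0.00657) and RRM1 (-0.21, adjusted p = 0.0258) also passed as lower. The TYMS value lay at the TPM shift of -0.13 described above, and that of RRM1 lay below it. RRM2 encodes the regulated subunit of ribonucleotide reductase (chr2:10120698-10211725, plus strand) and had 28566, 28038 and 28466 normalized counts among the GFP controls and 33894, 33829 and 34277 in those labelled T-MGM. Its partner subunit RRM1 had 4842, 5009 and 4773 against 4886, 4945 and 4871. The RRM2 groups were separate (0.26, SE 0.01, adjusted p = 2.72e-79), while those of RRM1 overlapped (95% limits of the fold 0.968 to 1.04 on counts).

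PCNA, the sliding clamp of the replication fork, had 5414, 5123 and 5114 normalized counts among the GFP controls and 4777, 4808 and 4711 in those labelled T-MGM. It was lower in every one of them (-0.13, SE 0.03, adjusted p = 2.13e-05), and by -0.13 after GC correction. The median over 68 expressed genes within 10 Mb of PCNA was also negative, at -0.12, and -0.13 after GC correction. Its part in the result was not tested. Upstream windows are shown for CDT1 (chr16:88803539-88803788, plus strand), which was higher, and PCNA (chr20:5126623-5126872, minus strand), which was lower.
CDT1: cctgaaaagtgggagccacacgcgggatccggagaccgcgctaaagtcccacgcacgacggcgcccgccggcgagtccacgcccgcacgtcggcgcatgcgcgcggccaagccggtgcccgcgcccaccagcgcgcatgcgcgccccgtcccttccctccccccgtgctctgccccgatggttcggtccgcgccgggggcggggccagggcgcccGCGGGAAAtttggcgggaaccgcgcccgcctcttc
PCNA: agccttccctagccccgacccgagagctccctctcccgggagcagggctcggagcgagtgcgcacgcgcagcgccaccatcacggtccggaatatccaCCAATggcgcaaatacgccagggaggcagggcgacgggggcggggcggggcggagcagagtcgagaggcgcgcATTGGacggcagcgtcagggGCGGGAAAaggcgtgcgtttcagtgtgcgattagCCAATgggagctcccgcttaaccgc
Both held the same E2F letters, GCGGGAAA on the printed strand, so the match did not go with 1 direction here. A second PCNA window, not printed, held CCAAT boxes only.

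Of the 7 S, G2 and M cyclins, CDK1 and CDC25 phosphatases, CCNB1 and CCNB2 were higher on counts, each below 0 on TPM (-0.00 and -0.07), and the other 5 did not pass. Their median was 0.04, and after GC correction it was 0.13 with 4 higher and 1 lower. CDC25B passed as lower on TPM (-0.16, adjusted p = 0.0178), where the shift described above was -0.13. CCNB1, the main mitotic cyclin, had 5761, 5854 and 5847 normalized counts among the GFP controls and 6577, 6198 and 6319 in those labelled T-MGM (0.13, SE 0.03, adjusted p = 5.46e-06). CCNB2 had 2865, 2883 and 2841 against 3044, 3143 and 3052 (0.10, SE 0.03, adjusted p = 0.0071), and did not pass without T-MGM replicate 2 (adjusted p = 0.0513). For both cyclins the groups did not overlap, yet their kinase CDK1 had overlapping groups, with 3916, 3785 and 3704 normalized counts against 3870, 3877 and 4076.

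Mitotic and proliferation genes moved both ways. AURKB, BIRC5, PLK1 and MKI67 were higher, AURKA and BUB1 lower, and TOP2A, BUB1B and CDC20 did not pass, with MKI67 changing sign on TPM (-0.17). AURKA, the kinase of centrosome maturation (chr20:56369389-56392337, minus strand), had 6459, 6202 and 6447 normalized counts among the GFP controls and 5179, 5106 and 5153 in those labelled T-MGM. BUB1, a spindle checkpoint kinase (chr2:110637528-110678063, minus strand), had 6750, 6559 and 6852 against 5258, 5647 and 5749. Neither overlapped between groups (AURKA -0.31, SE 0.03, adjusted p = 1.7e-31, and BUB1 -0.27, SE 0.03, adjusted p = 1.05e-18), and both passed after GC correction (-0.29 and -0.18). Their neighbours within 10 Mb were lower too, with medians of -0.21 over 105 genes for AURKA and -0.23 over 62 genes for BUB1. After GC correction these medians were -0.23 for AURKA and -0.16 for BUB1, and the part of this in the results was not tested.

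The chromosomal passenger kinase AURKB and its partner BIRC5 (survivin) were higher by 0.30 (SE 0.05, adjusted p = 1.04e-09) and 0.22 (SE 0.03, adjusted p = 5.57e-18). On TPM neither passed (0.12, adjusted p = 0.057, and 0.07, adjusted p = 0.192), and after GC correction AURKB was at 0.17 (adjusted p = 0.000632). PLK1, a kinase of mitotic entry, was higher by 0.15 (SE 0.02, adjusted p = 5.31e-10), with adjusted p = 0.0566 after GC correction and 0.00 on TPM (adjusted p = 0.956). MKI67, the source of the Ki-67 proliferation antigen, was higher by 0.10 on counts (SE 0.01, adjusted p = 1.56e-15) and lower by -0.17 on TPM (adjusted p = 0.00306). No single direction for Ki-67 followed from these files. Its upstream window (chr10:128126424-128126673, minus strand) is shown because it carries the CHR letters TTTGAA typical of mitotic promoters in 2 places, the second joined to a CCAAT box in 1 run of capitals.
MKI67: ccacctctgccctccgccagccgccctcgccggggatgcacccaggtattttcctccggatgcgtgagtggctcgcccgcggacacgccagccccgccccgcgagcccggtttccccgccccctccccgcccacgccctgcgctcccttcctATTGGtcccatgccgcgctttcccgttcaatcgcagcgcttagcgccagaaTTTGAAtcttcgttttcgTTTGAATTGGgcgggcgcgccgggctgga

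Promoter letters were counted in the 250 bases before every RefSeq start of 42 of the 52 genes. Windows for BIRC5, AURKA, CCND2, MCM5, MCM4, E2F8, CDKN1C, CCND1, CDK2 and CCNE2 were not used here. The 42 genes took in 19 of the 24 higher genes, 8 of the 12 lower and all 15 that did not pass. Every tested gene left out had thus passed. Both strands were searched for CCAAT, for the CHR letters (either TTTGAA or its known variant TTTAAA), for E2F letters (TTTCCCGC, TTTGGCGC, TTTCGCGC or TTTGCCGC), for an E-box (CACGTG, the form that MITF is best known to bind, or its variant CATGTG), and for the MAF half-site letters TGCTGA. The CCAAT letters were present in 66.7% of the 42 genes and in 37% of all 27305 genes with a window, and the E2F letters in 28.6% and 3.4%. The CHR letters were found in 35.7% and 25.5%, the E-boxes in 21.4% and 18.2%, and the MAF half-site letters in 7.14% and 16.8%. The 27305 genes include untested ones. Over tested genes the CCAAT letters were in 41.1% of those higher, 42.1% of those lower and 41.6% of those that did not pass. For the CHR letters these shares were 18.9%, 20.9% and 20.1%. A gene counted if any of its windows held a match, with 62 windows over the 42 genes and 35116 over the 27305. A match describes the letters only, and overlapping letters were counted for each motif.

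Within the 42 genes, an E-box stood upstream of 8 of 19 higher genes (CCNB1, CDK4, CDKN2C, MCM2, MCM7, MYBL2, PLK1 and RBL2), of 1 of 8 lower genes (E2F3) and of 0 of 15 that did not pass. Over all tested genes the shares were 18.9% of those higher, 18.3% of those lower and 18.9% of those that did not pass. Most of those 8 changes were small, at 0.05 to 0.18 except for CDKN2C and RBL2, and CCNB1, CDK4, MCM2, MCM7 and MYBL2 changed sign on TPM. After GC correction CDK4, MCM7 and PLK1 did not pass and MYBL2 was lower. Of the 15 without an E-box that had not passed, CCNA2, CDK1, RB1, RRM1 and TOP2A then became higher and CCND3, CDC25B and CDC20 lower. The split by E-box thus depended on the correction. The E2F letters were present in 5 of 19 higher, 4 of 8 lower and 3 of 15 not passed genes. For these letters the shares over all tested genes were 5.69%, 5.7% and 5.08%, in the same order.

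Genes of the same pathways outside the 52 counted fewer higher than lower members in licensing and mitosis. For comparison, 19.2% of all genes tested were higher and 19.2% lower. At an average of at least 1000 normalized counts, 29.7% of genes were higher and 38.3% lower, and no contrast with these lists was tested. Of 22 other licensing and origin firing genes, 7 were higher and 11 lower (median -0.13), led by MCM8 (-0.24), DBF4 (-0.33), the activating subunit of the CDC7 kinase, and GINS2 (0.33), a subunit of the replicative helicase complex. Of 52 other mitotic kinases, spindle and kinetochore genes, 11 were higher and 25 lower (median -0.07), and the leading changes were KIF20B (-0.47), ASPM (-0.38) and the kinetochore motor CENPE (-0.40). After GC correction these medians were -0.01 and 0.02, with 7 higher and 5 lower and with 13 higher and 15 lower.

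Of 32 replication fork genes, 12 were higher and 10 lower (median 0.02), with CLSPN, the adaptor of the replication checkpoint, at -0.40 and the thymidine kinase TK1 at 0.55. Of 28 other cyclin, CDK, RB and E2F regulators, 7 were higher and 7 lower (median -0.05), with the mitotic factor FOXM1 at 0.19, CCNF at 0.19 and CCNG2 at 0.40. Of 22 p53 response genes, 21 were tested, of which 4 were higher and 5 lower (median 0.06), and PLK2 (0.66), ZMAT3 (-0.35) and XPC (0.34) had the largest test statistics. After GC correction the fork genes were 7 higher and 9 lower, the other regulators 8 higher and 3 lower (median 0.03) and the p53 response genes 6 higher and 5 lower. The genes named from these lists all passed on counts, and FAS (1.59, chosen after its value was seen) was the only 1 of the 156 genes in these lists to exceed 2-fold.

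**Figure D4:**
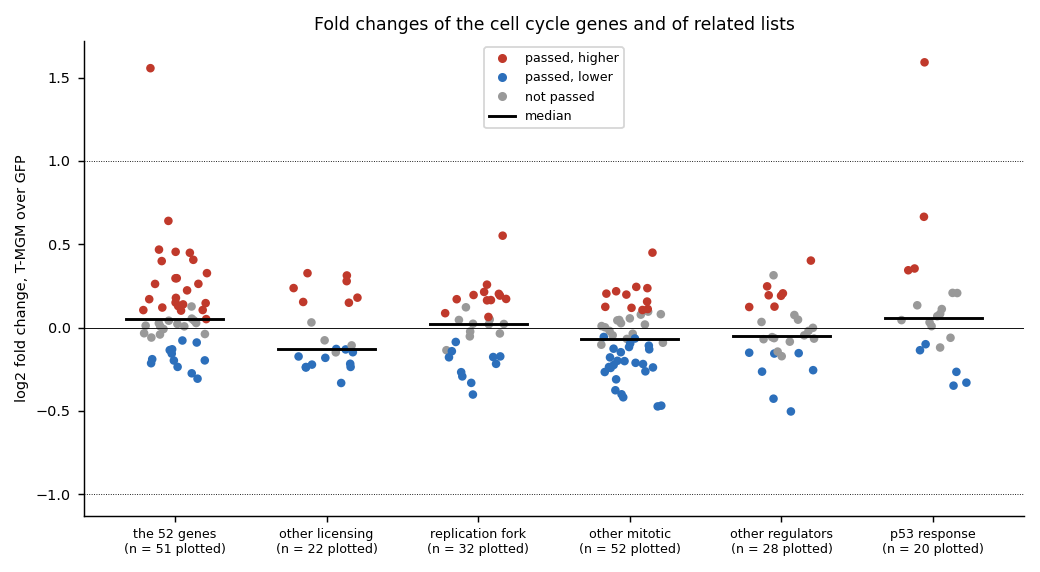
Log2 fold change (y axis, T-MGM over GFP) of the cell cycle genes and of 5 related lists (x axis), 1 point per gene with a mean of at least 10 normalized counts, red for higher, blue for lower and grey for not passed, with the median as a bar. Medians run from -0.13 in other licensing genes to 0.06 in p53 response genes, and only CDKN1C and FAS lie beyond the dotted 2-fold lines.

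Fold changes moved with base composition. Across the 51 genes the Spearman correlation of the GC content of the longest transcript with log2 fold change was 0.54, across 12613 expressed genes it was 0.376, and across the 52 other mitotic genes it was 0.735. These points share 6 libraries and are a description. After correction for GC content and length the value for the 51 genes was 0.091, with 24 higher and 11 lower, and that for the other mitotic genes was 0.393. The calls for CCNE2, CDK4, CDK6, CDKN1B, RBL1, E2F1, MCM6, MCM7 and PLK1 were then lost and MYBL2 turned lower, while CCNA2, CDK1, RB1, RRM1 and TOP2A became higher and CCND3, CDC25B and CDC20 lower. CDKN1C, CDKN2A, CDKN2B, CDKN2C, CDKN1A, CCND1, RBL2, E2F2, MCM5 and RRM2 remained higher, and AURKA, BUB1, E2F3 and PCNA remained lower.

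**Figure D5:**
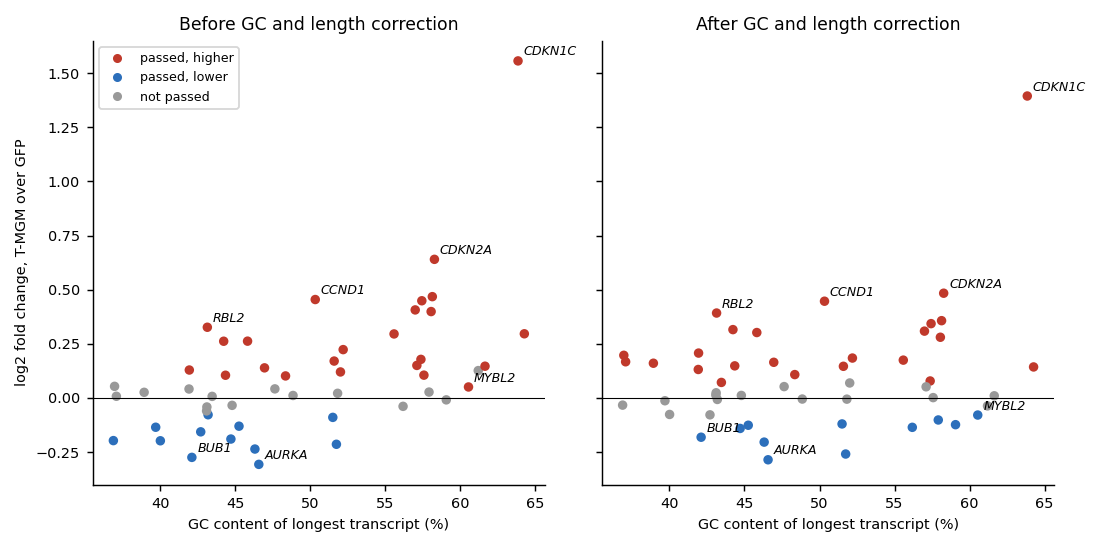
Log2 fold change (y axis, T-MGM over GFP) against GC content of the longest transcript (x axis, %) for 51 cell cycle genes, before (left) and after (right) correction for GC content and length, red for higher, blue for lower and grey for not passed. The upward drift on the left (Spearman 0.54) is mostly gone on the right (0.091), and CDKN1C and CDKN2A stay highest.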

How the data were processed

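RNA sequencing of 3 GFP and 3 T-MGM libraries of WM164 cells was analysed. The authors trimmed reads with cutadapt 1.8.1, aligned them to GRCh38 with STAR 2.7.7a and used featureCounts on uniquely mapped reads. The deposited counts per gene are raw whole numbers. The authors also deposited TPM from RSEM 1.3.0. The annotation release was not given in the sources used here, and labels and methods name kits without and with strand information.

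Groups and replicate numbers came from the sample labels, and 0 per-sample columns were left unused. Counts were fitted with DESeq2 1.42.0 (R 4.3.3): a design with group alone, its default size factors, 2-sided Wald tests, Benjamini-Hochberg adjustment over all genes, independent filtering at 0.05 and no shrinkage. Undefined adjusted p-values stayed undefined. A change over 2-fold also needed an adjusted p at or under 0.05. Replicate pairs differed by 2.87 to 5.54 times the sampling variance per gene and were kept as separate libraries.

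Alternatives were edgeR 4.0.16, TMM factors, total counts, a minimum of 10 counts in 3 libraries, no independent filtering, a replicate block, leaving out each library, lowess offsets (span 0.3) for GC content and length of the longest GENCODE 44 transcript, and limma 3.58.1 on log2(TPM + 1) or log2(TPM + 0.1), with and without a minimum of 0.5 TPM. Scripts were tested on simulated data. Values per library were printed for genes over 2-fold, the 2 genes per role group with the largest Wald statistic and genes averaging under 10 normalized counts; other values per library were added after they were seen. In each of 5 related lists the 3 genes with the largest Wald statistic were named, except where a gene is not reported here. Members and lists were chosen with earlier results of these data known. Gene positions are from GENCODE 44 and upstream sequences from RefSeq (GRCh38.p14). The precision of each value rests on the total counts per library described in the report.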

Additional observations from a re-analysis of the deposited data

How the results depend on the processing

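Under every alternative run, exactly 1 of the 51 genes exceeded 2-fold. The counts of higher and lower genes were 24 and 12 with edgeR, 23 and 12 with the stricter count minimum or without independent filtering, and 24 and 11 after GC and length correction, all within 1.5 times the main counts. Leaving out each library in turn gave 22 to 24 higher genes, 9 to 11 lower genes and medians of 0.0434 to 0.0572. On TPM the counts were 8 and 22 with a pseudocount of 1 or 0.1, and 7 and 17 without the minimum. The median log2 fold change, 0.0505 in the main fit, was 0.0614 with TMM factors, -0.003 with total counts, -0.0971 on TPM plus 1 with or without the minimum and -0.0983 on TPM plus 0.1. Minus the median of genes with a mean of at least 50 normalized counts under the same setting, it stayed between 0.029 and 0.063 everywhere.

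Among the 36 genes that passed, and MITF, the following changed sign. MYBL2 was -0.003 with total counts and -0.0792 after GC correction. On TPM plus 1, with or without the minimum, CDK4 was -0.0134, CCNB1 -0.0041, CCNB2 -0.0726, E2F1 -0.0012, MYBL2 -0.0971, MCM2 -0.0078, MCM4 -0.0397, MCM7 -0.0496, MKI67 -0.1716 and MITF -0.062. On TPM plus 0.1 the same genes were -0.0137, -0.0042, -0.0739, -0.0012, -0.0983, -0.0079, -0.0399, -0.0502, -0.173 and -0.0624, in that order. Of the 15 genes that did not pass, 8 changed sign with total counts, 7 after GC correction and 10 on TPM plus 1. The cause was not tested. The GFP and T-MGM libraries share replicate numbers, but those numbers did not pair them: deviations of same-numbered libraries correlated at -0.0067, -0.0579 and 0.0291. With a replicate block there were 21 higher and 10 lower genes, and the calls of CCNE1, CCNB2, E2F1, MYBL2 and MCM6 were lost. Depth limited CCND2, with at most 5 counts in a library, and the SEs of CDKN1C (0.15), CDKN2D (0.11) and CDC25C (0.10) were the widest of the 51.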
